A study of Argopecten irradians irradians with 6 samples.

Results

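The microRNAs (miRNAs) miR-100 and miR-99 were followed through the small-RNA libraries of bay scallop adductor muscle. The members were every name in the deposited count table that reads miR-100 or miR-99 after its species prefix, with any letter or arm. There were 138 such names among 5446, of which 85 were miR-100 and 53 were miR-99. Names whose counts were identical in all 6 libraries were merged into 1 profile, which left 46 profiles among 1005 in the whole table. Of the 46 profiles, 39 were miR-100 and 7 were miR-99, and no profile was shared between both names or with a name of another family.

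The libraries came from Argopecten irradians irradians of 2 strains. White adductor muscle was taken from the strain Bohai Red (3 libraries) and orange adductor muscle from the strain QN Orange (3 libraries). No treatment, age or time point is given in the sources used here. The design text describes 9 muscles per strain, pooled by 3 for each library, so a library is a pool of 3 animals and strain and muscle colour cannot be told apart. The columns of the table carry the letters B and G only. B was read as Bohai Red and G as QN Orange, and the direction of each difference given here rests on that reading, which the files did not settle.

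In animals, miR-100 belongs to the ancient miR-10 superfamily, and in many of them it lies in 1 cluster with let-7 and miR-125. let-7 is known for the timing of development in worms and flies, and miR-100 is known in mammals for lowering the protein kinase mTOR, which drives growth. miR-99 is the name of the vertebrate relatives of miR-100, which share its seed, the stretch near the start of a miRNA that pairs with target messengers. The study addresses carotenoid accumulation in orange muscle, and the comparison asks which miRNAs differ between orange and white muscle.

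Where a sentence gives 3 values for a group, they are those of replicates 1, 2 and 3 in that order. Levels are given as CPM, the count per 1000000 counts of a scaled library size. That size was the total of a table with 1 row per family, multiplied by the TMM scaling factor of edgeR. The most abundant row stood for a family because the same reads were counted under many species' names. The factors ran from 0.913 in orange replicate 2 to 1.13 in orange replicate 1. Before scaling, the totals were 2092825 to 4001516 per library, and orange replicate 2 was the shallowest. Summed over all names they were 85674751 to 152002629. Both libraries numbered 1 stood apart: among the 1005 profiles, 31 were at least 10-fold higher in white replicate 1 than in each other library and 15 in orange replicate 1, while none was in the other 4 libraries (at 100 or more counts in that library). One of the 15 was a miR-100 profile. The muscle miRNAs miR-1 and miR-133 were, with miR-100, among the 4 most abundant families in each library, and miR-206, a further muscle miRNA, was at 1 to 8 counts.

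The orange libraries held more miR-100 than the white libraries. The most abundant row of the family, the limpet (Lottia) name lgi-miR-100, had 525192, 464099 and 433354 counts in the white libraries. The orange libraries had 795314, 421354 and 813031 counts. On the scaled CPM the white libraries held 123217, 140945 and 143902 and the orange ones 187301, 220556 and 221594, so the groups did not overlap. White replicate 1 and orange replicate 1 were the lowest of their groups on that scale. As a share of the unscaled total, miR-100 was 13.1%, 13.6% and 13.7% in white and 21.2%, 20.1% and 22.0% in orange muscle. By that share orange replicate 2, not 1, was the lowest orange library. The mean rose 1.54-fold, from 136021 ± 11187 to 209817 ± 19506 CPM (SD, n = 3). By edgeR the log2 difference was 0.63 with an SE of 0.117 and an adjusted p of 0.0234. The median family lay at -0.05, and miR-100 lay 0.68 above it. Without white replicate 1 the difference was 0.56 beside a median family of 0.41, a gap of 0.15. With orange replicate 1 left out it was 0.70 beside a median of -0.40, a gap of 1.11. Without both libraries numbered 1 the difference was 0.63 (adjusted p = 0.0267). With all 6 libraries, 4.32% of the 139 families tested were called higher in orange muscle. Over the alternative settings the adjusted p ran from 0.00193 to 0.352, and the call was lost with DESeq2 size factors (0.0730), with upper-quartile factors (0.160), in the DESeq2 test (0.352), and without white replicate 2 (0.0602), white replicate 3 (0.0676) or orange replicate 3 (0.0504).

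Among 491 families, miR-100 ranked 4th in each of the 3 white libraries, 3rd in orange replicates 1 and 2 and 2nd in orange replicate 3. CPM are relative to a scaled library size, so a rise of one abundant miRNA and a fall of others cannot be told apart. Beside the rise of miR-100, the summed level of the 3 muscle miRNAs was 414871 to 484225 CPM in white and 292507 to 440132 CPM in orange muscle, lowest in orange replicates 1 and 3. Neither tested member was called: miR-1 differed by -0.66 on the log2 scale (SE 0.199, adjusted p = 0.0938, edgeR) and miR-133 by -0.27 (SE 0.180, adjusted p = 0.343). In bulk muscle, fewer cells of a type and less RNA per cell cannot be told apart, and the part of either in the miR-100 value was not tested.

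The names divided into 15 groups when profiles that followed each other in order of total counts and differed by at most 5% in every library were put together. Of the 85 miR-100 names, 70 fell in the 2 most abundant groups, which held all the calls. The first held lgi-miR-100 and oga-miR-100, named for a limpet and a bushbaby. The second held 68 names in 27 profiles, from 392717 to 766655 counts per library, among them those of human, mouse, chicken, zebrafish, honeybee and silkworm. The largest merged miR-100 profiles were age-miR-100 and cja-miR-100, each standing for 15 names with identical counts.

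**Figure D1:**
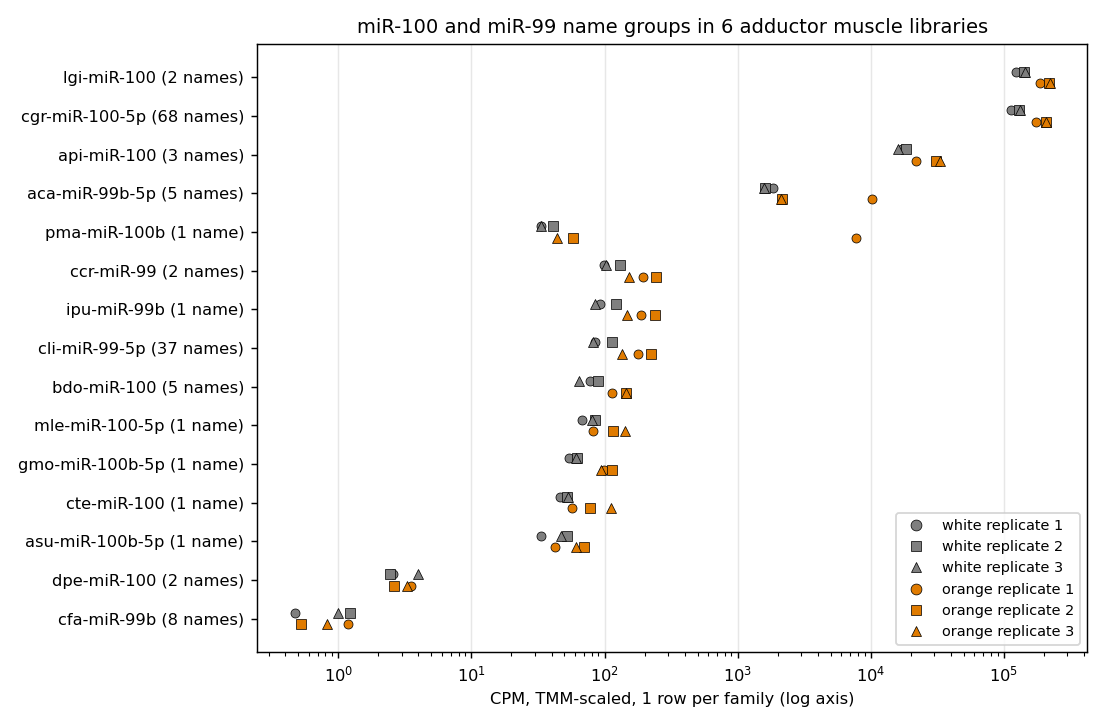
CPM in each of the 6 libraries (log axis) for the most abundant profile of each of the 15 groups of near-identical miR-100 and miR-99 profiles, with the number of names in the group. Grey symbols are the 3 white and orange symbols the 3 orange libraries, with the symbol shape giving the replicate number. In the top 3 groups every orange library lies above every white library, and for aca-miR-99b-5p and pma-miR-100b orange replicate 1 lies far to the right of the rest, at 10247 and 7756 CPM.

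No name carried the label of the 3p arm. The 5p arm was stated for 44 of the miR-100 names and 31 of the miR-99 names, and the remaining 41 and 22 gave no arm. Names with and without the 5p label stood side by side in the same merged profile, as in age-miR-100. The ratio between the arms of miR-100 was therefore not analysed here. Letters did not sort the names by abundance either. Of the 5 names miR-100a, 4 lay in the second group and pte-miR-100a-5p, of a spider, lay at 58401 to 120400 counts. Of the 5 names miR-100b, 2 lay in the second group, and the names from cod (gmo), the roundworm Ascaris (asu) and lamprey (pma) lay at 101 to 418 counts, apart from a single value of 32933 for the lamprey name.

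Of the 46 profiles, 45 passed the filter on low counts, and cfa-miR-99b, at 1 to 5 counts per library under 8 names, did not. Of those 45, 29 were called higher and 0 lower in orange muscle (edgeR over the 639 profiles tested, adjusted p from 0.0246 to 0.0276), against 6.73% called higher among all 639. The members made up 67.4% of the 43 higher calls, and 12 further profiles of the table were called lower. The 29 called profiles have nearly the same counts within each of their 2 groups and are not 29 separate results. The adjustment over the 639 profiles ranked each near copy as a test of its own, so these adjusted p-values depend on the number of copies. Whether the profiles would pass with each group counted once was not tested. All 3 orange libraries lay above all 3 white libraries for 42 of the 45, where 21.8% of the 639 profiles, members included, had this order. The median log2 difference was 0.66 over the 45 and -0.05 over the 639. Near copies were counted 1 by 1 in both of these values too. The second group alone gave 27 of the 45 profiles, all with this order and a difference of 0.66. Counts of members at an unadjusted p under 0.05 hold the same copies. The 29 calls rested on the set of libraries: by edgeR none was left when white replicate 1, 2 or 3 or orange replicate 3 was taken out. In those 4 fits 37, 38, 32 and 41 members were higher at an unadjusted p under 0.05, beside 121 of 654, 79 of 666, 72 of 671 and 104 of 668 profiles of the whole table. Without white replicate 2, white replicate 3 or orange replicate 3, 0 profiles of the whole table were called by edgeR, and without white replicate 1 there were 1 higher and 5 lower. The same held without both libraries numbered 1, with 0 profiles of the table called by edgeR and 36 members among the 141 of 632 profiles higher at an unadjusted p under 0.05. DESeq2 on all 6 libraries called none of the members, 38 of which were higher at an unadjusted p under 0.05 beside 92 of 1005 profiles. With TMM factors from the profile table itself in place of those of the family table, none of the members was called by edgeR either, 1 was higher at an unadjusted p under 0.05 beside 28 of 633 profiles, and the lowest adjusted p was 0.193. In that setting the log2 difference of lgi-miR-100 was 0.29 in place of 0.63 and the median over the members 0.32 in place of 0.66, while the median over all profiles lay at -0.41 in place of -0.05.

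The 12 most abundant profiles were those under the names lgi, oga, cgr, sko, bbe, asu (miR-100a-5p), ola, bma (miR-100b), isc, dpu, abu and hpo. All of them were called, with log2 differences of 0.62 to 0.66. For lgi-miR-100 and oga-miR-100 the difference was 0.63 and 0.62 (SE 0.120 each, adjusted p = 0.0276 each, edgeR). For the 27 profiles of the second group it was 0.66 in each (SE 0.123 at most, adjusted p = 0.0246). Over the 2 top groups the fitted difference thus ran from 0.62 to 0.66 with the species name. The SE measures the spread between pools, so it does not show whether the names differ from each other.

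**Figure D2:**
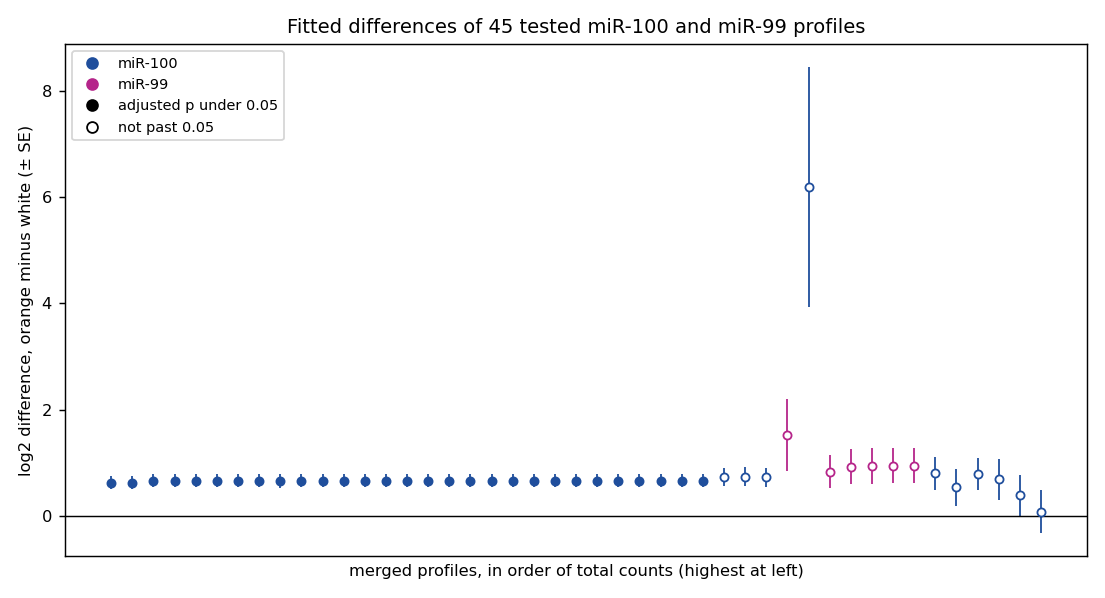
Log2 difference (orange minus white, with SE) of each of the 45 tested profiles, ordered from the highest total count at left to the lowest at right, with filled points for an adjusted p under 0.05. The 29 filled points at left lie between 0.62 and 0.66, and pma-miR-100b stands apart at 6.19 with an SE of 2.26.

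The third group held api-miR-100 (pea aphid), nve-miR-100-5p (a sea anemone) and pte-miR-100a-5p. api-miR-100 had 73192, 60354 and 48664 counts in the white libraries and 93693, 58811 and 121043 in the orange ones. In CPM this was 17220 ± 1086 in white and 28614 ± 5777 in orange muscle (SD, n = 3), again with no overlap. Its log2 difference of 0.73 (SE 0.178, adjusted p = 0.0643, edgeR) did not pass the threshold. Without orange replicate 1, the lowest of its group, the difference was 0.89 and passed, as it did with library totals in place of TMM factors (adjusted p = 0.0233 and 0.0240 by edgeR, over the alternatives 0.0233 to 0.272). As a percentage of lgi-miR-100 within a library, api-miR-100 was 11.2% to 13.9% in white and 11.8% to 14.9% in orange muscle, ranges that overlapped.

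The names of the first 2 groups did not share the difference evenly. The counts of lgi-miR-100 above those of age-miR-100, the profile that holds the human and zebrafish names, numbered 47204, 38090 and 39816 in the white libraries and 53919, 24771 and 51494 in the orange ones. This surplus was 8.99%, 8.21% and 9.19% of lgi-miR-100 in the white libraries and 6.78%, 5.88% and 6.33% in the orange libraries. Its share was lower in every orange library than in every white one. In CPM the surplus was 11955 ± 1124 in white and 13233 ± 707 in orange muscle (SD, n = 3), a ratio of 1.11, and the groups overlapped. The ratio for lgi-miR-100 as a whole was 1.54 and that for cgr-miR-100-5p was 1.58. This contrast was picked after the values were seen and was not tested, and subtraction of counts does not show that the names hold nested sets of reads.

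Most of that surplus lay in the step from oga-miR-100 to cgr-miR-100-5p, at 10449 ± 992 CPM in white and 11343 ± 570 CPM in orange muscle, with overlapping groups. Smaller steps behaved differently. The step from lgi-miR-100 to oga-miR-100 measured 384, 336 and 292 CPM in the white libraries and 609, 673 and 639 CPM in the orange ones, a ratio of 1.90 between means. The steps from cgr-miR-100-5p to hpo-miR-100-5p and from age-miR-100 to cja-miR-100 had nearly the same values as each other, with ratios of 2.00 and 2.00. In these 3 small steps every orange library lay above every white library. The 3 steps had similar values in each library and are not 3 separate results. A smaller step, from cja-miR-100 to xla-miR-100-5p, had the same order, at 29.2 ± 5.42 CPM in white and 45.6 ± 8.70 CPM in orange muscle. The pairs were picked among many possible ones, and the share of all pairs with this order was not computed. The step from hpo-miR-100-5p to age-miR-100 went the other way, at 868 ± 251 CPM in white and 652 ± 131 CPM in orange muscle, with overlap.

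**Figure D3:**
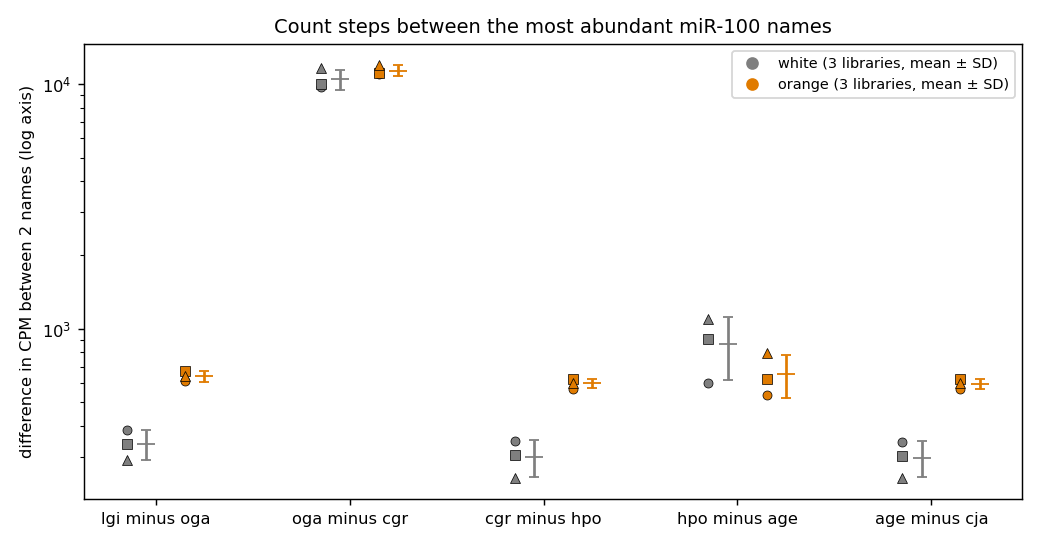
Difference in CPM between chosen pairs of miR-100 names (log axis) in the 3 white and 3 orange libraries, with the mean and SD of each group beside the points. Not all pairs are next to each other in order of total counts. The steps of lgi minus oga, cgr minus hpo and age minus cja are about 600 CPM in orange muscle against about 300 CPM in white, while the large step of oga minus cgr is 10449 CPM in white and 11343 CPM in orange muscle.

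The remaining miR-100 names were rare. The Drosophila melanogaster name shared a profile with 4 other flies under bdo-miR-100, with 331, 293 and 193 counts in the white libraries and 486, 275 and 528 in the orange ones. Its CPM were 76.9 ± 12.5 in white and 134 ± 17.0 in orange muscle without overlap, and the log2 difference of 0.80 did not pass (SE 0.315, adjusted p = 0.195, edgeR). The name from a sea slug, a mollusc like the scallop, was also rare: mle-miR-100-5p had a log2 difference of 0.54 (SE 0.351) with overlapping groups. For cte-miR-100, of the annelid Capitella, it was 0.69 (SE 0.386). The cod name gmo-miR-100b-5p was at 59.1 ± 4.29 CPM in white and 102 ± 10.6 CPM in orange muscle, without overlap. The names asu-miR-100b-5p and dpe-miR-100 had log2 differences of 0.39 (SE 0.390) and 0.08 (SE 0.404), with overlapping groups. None of these 6 passed the threshold.

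One miR-100 name was carried by a single library. The lamprey name pma-miR-100b had 142, 135 and 101 counts in the white libraries and 32933, 111 and 161 in the orange ones. Orange replicate 1 was 152-fold above the mean CPM of the other orange libraries, and the remaining 5 libraries lay between 33.3 and 58.1 CPM. The fitted log2 difference of 6.19 (SE 2.26, adjusted p = 0.173, edgeR) did not pass, and without orange replicate 1 it was 0.51 (adjusted p = 0.409, over the alternatives 0.127 to 0.648). The other lamprey name, pma-miR-100a-5p, shared the counts of age-miR-100 and showed no such excess. This name and that of the next paragraph were singled out after their values were seen.

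The most abundant miR-99 profile had the same outlying library. aca-miR-99b-5p, merged from the names of 5 reptiles (a lizard, an alligator, a turtle, a cobra and a python), had 7852, 5312 and 4798 counts in the white libraries and 43511, 4086 and 7765 in the orange ones. In CPM the white libraries held 1842, 1613 and 1593, and the orange libraries 10247, 2139 and 2116. The groups did not overlap, but orange replicate 1 was 4.82-fold above the mean of the other orange libraries. Its excess over them was 8120 CPM, beside an excess of 7705 CPM for pma-miR-100b, and whether these are the same reads was not tested. In the fit over families, where this row stands for miR-99, the log2 difference was 1.52 (SE 0.662) and did not pass (adjusted p = 0.199 by edgeR, over the alternatives 0.110 to 0.424). Without orange replicate 1 it was 0.34 (adjusted p = 0.424). As a percentage of lgi-miR-100 it was 5.47%, 0.970% and 0.955% in the orange libraries and 1.25% ± 0.214 in the white ones (SD, n = 3), so relative to miR-100 orange replicates 2 and 3 lay below every white library.

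Orange replicate 1 also held more of a neural miRNA and of epithelial ones than the other orange libraries. Counts of miR-124, a neuronal miRNA, were 2554 there and 21 and 41 in the other orange libraries. The summed level of the neural list (miR-124, miR-9, miR-7 and miR-219) was 461 to 649 CPM in white muscle and 1264, 595 and 329 CPM in the orange libraries, with miR-219 at 0 in orange replicate 1. That of the epithelial and sensory list (miR-8, miR-183, miR-96 and miR-263) came to 8904, 1503 and 1625 CPM in the white libraries and 4790, 2141 and 2657 CPM in the orange ones. The gut and digestive gland list (miR-375, miR-194, miR-192 and miR-122) was at 11.5 to 20.3 CPM in white and 26.1 to 138 CPM in orange muscle, highest in orange replicate 3. White replicate 1, which had the highest epithelial level, had the highest white value of aca-miR-99b-5p, 1842 CPM against 1613 and 1593, and 33.3 CPM of pma-miR-100b against 41.0 and 33.5 in the other white libraries. The part of other tissues in the miR-99 value was not tested.

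The other miR-99 names did not have the excess. ccr-miR-99, merged from carp and zebrafish, had 423, 427 and 310 counts in the white libraries and 821, 466 and 565 in the orange ones. Its CPM were 111 ± 16.6 in white and 197 ± 45.1 in orange muscle, where all orange libraries were above all white ones and orange replicate 2, not 1, was the highest. The log2 difference was 0.83 (SE 0.314, adjusted p = 0.181, edgeR). The largest miR-99 profile by names, aca-miR-99a-5p with 27 names including those of human and mouse, had 243 to 752 counts per library and differed by 0.95 on the log2 scale (SE 0.330, adjusted p = 0.167). The 3 remaining tested miR-99 profiles, ipu-miR-99b, cli-miR-99-5p and abu-miR-99b, had log2 differences of 0.93 to 0.94. None of the 6 tested miR-99 profiles passed by edgeR, and by DESeq2 none of the members was called. By edgeR 5 of the 6 were higher at an unadjusted p under 0.05, beside 84 of the 639 profiles. Those 5 had counts similar to each other in every library and are not 5 separate results. The human name miR-99b was in cfa-miR-99b, at 1 to 5 counts, so no difference was detectable there at this depth.

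**Figure D4:**
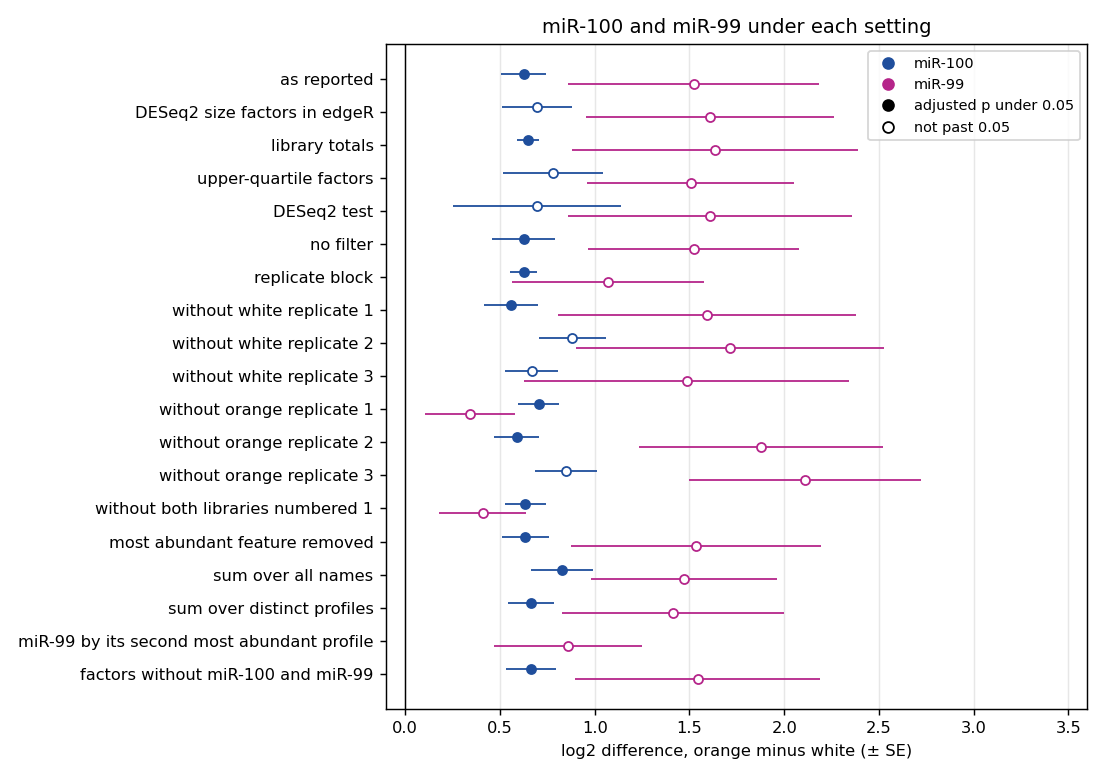
Log2 difference (orange minus white, with SE) of the rows that stand for miR-100 (blue) and miR-99 (magenta) as reported and under each alternative setting, with filled points for an adjusted p under 0.05. miR-100 stays between 0.56 and 0.88, and miR-99 runs from 0.34 without orange replicate 1 to 2.11 without orange replicate 3.

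Taken within a library, a ratio is free of the factors that scale libraries to each other. Each by its most abundant row, miR-99 over miR-100 had log2 ratios of -6.06, -6.45 and -6.50 in the white libraries and -4.19, -6.69 and -6.71 in the orange ones. Orange replicate 1 was the highest and the other orange libraries were the lowest, so the groups overlapped (difference 0.47, exact two-sided permutation p = 1, adjusted p = 1 over 4 ratios). Without orange replicate 1 the difference was -0.36 (exact permutation p = 0.2). The smallest p that 3 against 3 libraries allow is 0.1, so none of these ratios could pass 0.05.

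Of the genes grouped here as the let-7 cluster and its relatives, miR-100, miR-99, let-7, miR-98 and miR-125 were tested. All 5 had log2 differences above 0, with a median of 0.68 against -0.05 over the 139 families, and miR-100 was the 1 that passed. The median is the value of miR-98 (SE 0.434, adjusted p = 0.336, edgeR). miR-125 was at 0.93 with overlapping groups (SE 0.591, adjusted p = 0.336, edgeR). The miR-99 value was 1.52, and 0.34 without orange replicate 1. let-7, by its most abundant row, held 45121, 52297 and 63479 CPM in the white libraries and 72944, 65636 and 89463 CPM in the orange ones, which did not overlap. The fitted value was 0.50 (SE 0.182, adjusted p = 0.144, edgeR). The log2 ratio of let-7 to miR-100 was -1.35 ± 0.15 in white and -1.47 ± 0.24 in orange muscle (SD, n = 3), a difference of -0.12 with overlapping groups (exact permutation p = 0.6, adjusted 0.8). For miR-125 the ratio differed by 0.50 (exact permutation p = 0.6, adjusted 0.8), with white replicate 3 far below the others at 272 counts, and without that library the difference was -0.17. miR-98 is a let-7 relative and miR-99 a miR-100 relative, and how reads that match both were assigned is not given in the sources used here, so the 5 families may not be independent.

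In the miR-10 superfamily list, 4 of 6 families were tested (miR-10, miR-99, miR-100 and miR-125) and 3 lay above 0. miR-10, a miRNA of the Hox gene clusters, was the exception, and its value rested on 1 library. Its most abundant row had 13942, 136 and 158 counts in the white libraries and 230, 87 and 195 in the orange ones. The log2 ratio of miR-10 to miR-100 was 2.54 lower in orange muscle (difference -2.54, exact permutation p = 0.1, adjusted 0.4), and without white replicate 1 the difference was -0.43. miR-57 had 1 count in all, and miR-51 was not among the families with counts.

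The families whose pattern over the 6 libraries was most like that of miR-100 were looked for by the SD of their log2 ratio to it, among 137 tested families other than miR-99. The smallest SD, 0.11, belonged to miR-98, at 79 to 169 counts per library. miR-34 and let-7 followed, both with an SD of 0.19. The log2 ratio to miR-100 ran from -12.53 to -12.23 for miR-98, from -10.17 to -9.67 for miR-34 and from -1.75 to -1.18 for let-7.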

How the data were processed

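The counts were deposited by the authors as whole numbers per miRNA name in 6 columns, without normalization, as the values show. How reads were trimmed, aligned and assigned to names is not given in the sources used here. Neither a genome nor miRNA sequences were used. A second table of scaled values was not used; 9 of its columns have no counterpart in the count table. The members, lists and tests were chosen with earlier results of these data known.

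Names were stripped of prefix, arm, letter and copy to give 491 families with counts, and 1327 of 5446 names were at 0. The most abundant row stood for each family. edgeR 4.0.16 in R 4.3.3 was used across all families and across all merged profiles (TMM factors of the family table, filterByExpr by group, robust glmQLFit, glmQLFTest). Adjusted p-values are Benjamini-Hochberg over each table, read against 0.05. An SE is the log2 difference divided by the square root of F. Ratios used a pseudocount of 0.5 and exact two-sided permutation tests. The fit was also run on simulated independent rows, each table with its own TMM factors. The reported profile fit used factors of the family table on many near-identical rows, so that run does not cover the profile calls. Each profile past the filter is described, the 12 most abundant by name. Nothing says whether pools were otherwise separate, so p-values measure the spread between 3 pools per group. The alternatives were DESeq2 1.42.0, other scalings, no filter, a replicate block, other merging, and leaving out libraries. The setting with miR-99 by its second most abundant profile, and TMM factors without miR-100 and miR-99, were added after the data were seen.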

Additional observations from a re-analysis of the deposited data

How the results depend on the processing

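The log2 difference of miR-100 was above 0 in all 17 alternatives tried, and it passed in 11 of them. It did not pass with DESeq2 size factors (0.69), with upper-quartile factors (0.78) or by the DESeq2 test (0.69), and ran from 0.56 to 0.88 without each library in turn, passing in 3 of those 6 fits. miR-99 did not pass in any of 18 alternatives (0.34 to 2.11), and by its second most abundant profile it was at 0.86 (adjusted p = 0.213, edgeR, over the alternatives 0.110 to 0.424). The number of member profiles called was 29 as reported and ran from 0 to 32 without each library: it was 0 when white replicate 1, 2 or 3 or orange replicate 3 was left out, 32 without orange replicate 1 and 27 for orange replicate 2. The count fell to 0 with DESeq2 size factors, 0 with upper-quartile factors, 0 with factors of the profile table, 0 by the DESeq2 test and 0 without both libraries numbered 1, where 39, 39, 1, 38 and 36 members were higher at an unadjusted p under 0.05, beside 82 of 635, 82 of 629, 28 of 633, 92 of 1005 and 141 of 632 profiles of the table. With upper-quartile factors, and without both libraries numbered 1, edgeR called 0 profiles of the whole table. The cause was not tested. Relative to the median family of each setting, miR-100 lay 0.15 (without white replicate 1) to 1.11 (without orange replicate 1) higher. That median was -0.05 as reported, 0.06 with DESeq2 size factors and 0.14 with upper-quartile factors.

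Without each library in turn, the difference of the miR-99 to miR-100 ratio ran from -0.36 to 0.90, that of let-7 to miR-100 from -0.201 to 0.0189, and that of miR-125 to miR-100 from -0.17 to 0.91. The profile dpe-miR-100, at 5 to 15 counts, ran from -0.0122 to 0.331 without each library and was at -0.0908 without both libraries numbered 1. Of the profiles in the table, 14 that lead a group of near-identical profiles were refitted, and the 13 other than dpe-miR-100 kept their sign in all 16 alternatives. With the replicate number as a block (replicate block), miR-100 was at 0.62 (SE 0.0705, adjusted p = 0.00628, edgeR) and 29 profiles were called. Same-numbered libraries deviated together with r = 0.191, 0.00223 and 0.171 over 139 families. For libraries of different numbers r ran from -0.270 to 0.177. These values do not settle whether the numbers mark pairs, and the numbers were not taken as pairs. The planned ratio of 3p to 5p arms gave no value because no member name carries the label of the 3p arm.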
